A study of Mus musculus with 6 samples.

Results

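The 10 genes described here encode non-collagen proteins of cartilage matrix: the matrilins Matn1, Matn2, Matn3 and Matn4, the proteoglycan aggrecan (Acan), its link protein (Hapln1), cartilage oligomeric matrix protein (Comp), chondroadherin (Chad), chondromodulin (Lect1, now named Cnmd) and the Gla-rich protein Ucma. They were taken by symbol from a deposited table of 43496 gene entries, in which each symbol stood once. RNA came from the cranial base, the cartilage plate beneath the brain, taken from mice at embryonic stage E15.5, in days of gestation. The 3 Memo1 mutant embryos carried an allele made with ENU, a chemical mutagen, and the 3 control embryos are labelled only as controls. All were of the C57BL/6J strain, with 1 library each, and the sources used here do not say whether the mutants carried 1 or 2 copies of the allele. The comparison is between the genotypes.

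Cartilage owes its stiffness to aggrecan, a proteoglycan loaded with chondroitin sulfate that is held on hyaluronan by link protein and fills the spaces of a collagen II network. Matrilins, Comp and chondroadherin are adaptors that bind collagen fibrils, aggrecan or cells and join these networks together. Chondromodulin is a membrane-bound glycoprotein whose released domain keeps blood vessels out of cartilage, and Ucma is a secreted protein with many carboxylated glutamate residues made by early chondrocytes.

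Values were FPKM, fragments per kilobase of transcript scaled to library size, so that levels of different genes can be compared. Steps between low values put controls 2 and 3 and mutants 2 and 3 at 80.2% to 152% of the depth of control 1. Steps were sought among values below 0.1 FPKM in control 1 that were also low in the other library. The lowest 5% of values above 0 in mutant 1 reached 1.87 FPKM. Few of its values could thus enter, and its depth could not be read this way. Mutant 1 stood apart. It listed 30811 entries at 0 where the other 5 libraries listed 19787 to 20594, and its log2 values correlated with theirs at r = 0.748 to 0.762, against 0.968 to 0.981 among those 5 (r over 15710 genes, which are not independent). All 10 genes were above 0 in every library, with 25.1 FPKM, of Ucma in mutant 3, as the lowest value. Mutant 1 also stood apart at such levels. Hyal2 was 30.7 FPKM in mutant 1, against 72.3 to 82.0 FPKM in the other 5 libraries, and Chadl was 103 FPKM against 27.5 to 53.4 FPKM. Its values for the 10 genes may thus be off as well, and the change of each is given with and without mutant 1. Mutant 3 was female by its Xist level of 114 FPKM, against at most 0.0942 FPKM in the other 5 embryos, and the values without mutant 3 are among the alternatives. Memo1 mRNA was 25.4, 20.1 and 22.2 FPKM in mutants 1, 2 and 3, against 19.1, 23.1 and 21.9 FPKM in controls 1, 2 and 3. An ENU allele need not change the level of its mRNA, so this does not check the labels. The cartilage markers Col2a1, Col9a1, Col11a2 and Sox9 were present in every library and summed to 3427 to 3842 FPKM in mutants and 2224 to 3101 FPKM in controls.

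Together the 10 genes were more abundant in mutant cranial base, but not evenly. Their FPKM summed to 2190, 1780 and 2043 in mutants 1, 2 and 3, against 1381, 1412 and 1594 in controls 1, 2 and 3. Lect1 and Matn1 made up most of these sums, with means of 810 and 406 of 2004 FPKM in mutants. In controls they were 582 and 262 of 1462 FPKM, so the sums mainly describe these genes. Each mutant sum lay above each control sum, and without mutant 1 the lowest mutant sum was still above the highest control sum. Matn1, Matn2, Matn4, Acan, Hapln1 and Lect1 were higher in every mutant than in any control, Matn3, Comp, Chad and Ucma overlapped between genotypes, and no gene was lower in every mutant. These are 6 of 10 genes, where 8.98% of the 15710 genes that averaged 1 FPKM or more were higher without overlap and 11.9% were lower. The median log2 change was 0.33 over the 10 genes and -0.046 over all genes tested. In whole tissue, fewer cells of a type and less RNA per cell cannot be told apart.

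None of the 10 genes passed the test over all genes with equal weights. With limma on log2(FPKM + 1), all 6 libraries at equal weights and Benjamini-Hochberg adjustment, 0 of 10 passed an adjusted p of 0.05, as did 0% of the 15710 genes tested. At an unadjusted p under 0.05 there were 5 of the 10 genes, Matn1, Matn4, Acan, Hapln1 and Lect1, all higher in mutants, where 2.11% of all genes were higher and 3.01% lower at that level. With array weights, by which limma counts a library less the further it lies from its group, the weight of mutant 1 was 0.0329 and those of the others were 1.47 to 2.76. Matn4, Acan and Lect1 then rose, 3 of 10 genes, where 0.719% of all genes were called higher and 1.32% lower. Without mutant 1, the same 6 genes were higher without overlap and Chad and Ucma were lower, where 16.2% of all genes were higher and 20.1% lower. Of the 10, 0 passed, and 0.0127% of genes were called higher and 0.0318% lower, with 6 of the 10 at an unadjusted p under 0.05, where 17% of all genes were.

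**Figure D1:**
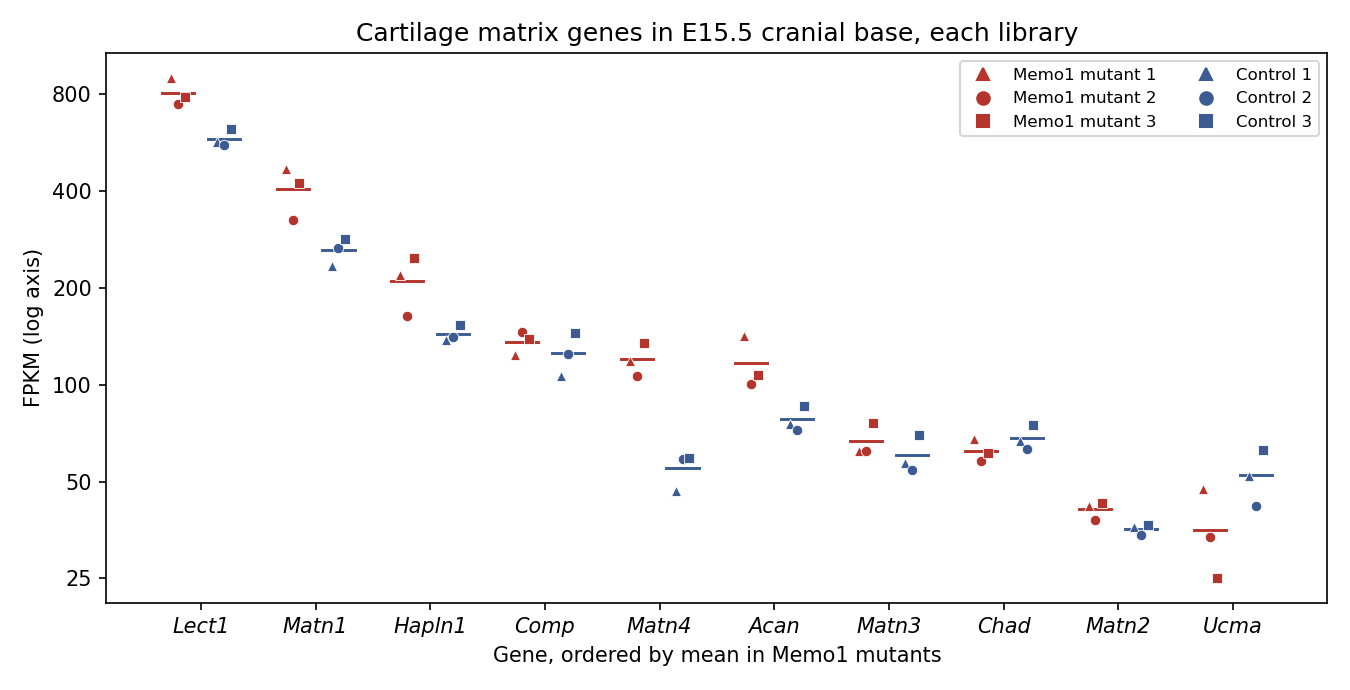
FPKM of the 10 cartilage matrix genes in each library, on a log axis, with Memo1 mutants in red left of controls in blue. Points are single embryos, bars are group means, and point shape gives the number of the embryo, which pairs nothing between genotypes. Matn4 is 106 to 135 FPKM in mutants and 46.7 to 59.1 FPKM in controls.

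The order of abundance was led by the same 4 genes in both genotypes. Lect1, Matn1, Hapln1 and Comp had the highest means, in this order, in mutants and in controls. In mutants the ranges of neighbours were apart in 5 of 9 steps, with Comp, Matn4 and Acan running into each other, Matn3 overlapping Chad, and Matn2 overlapping Ucma. In controls they were apart in 4 of 9 steps, and Acan, Chad, Matn3, Matn4 and Ucma formed a run in which each overlapped the next. Matn4 moved most in this order, with rank 5 by mean in mutants and rank 8 in controls. Chad went the other way, with rank 8 in mutants and rank 6 in controls.

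Among the matrilins, Matn4 had the largest difference and Matn3 had a small one. Matn4, the matrilin with the widest tissue distribution together with Matn2, was 119, 106 and 135 FPKM in mutants 1, 2 and 3, against 46.7, 59.0 and 59.1 FPKM in controls 1, 2 and 3. Its mean was 119.9 ± 14.3 FPKM in mutants and 54.9 ± 7.13 FPKM in controls (SD, n = 3 each), 2.18 times as high in mutants. The lowest mutant was well above the highest control (log2 change 1.11, SE 0.15, limma adjusted p = 0.608; with array weights 1.17, SE 0.13, limma adjusted p = 0.0164; without mutant 1 1.12, SE 0.15, limma adjusted p = 0.0568). Matn1, the first matrilin found and confined largely to cartilage, was 468, 326 and 424 FPKM in mutants, against 234, 267 and 284 FPKM in controls. Every mutant was above every control, mutant 2 by the smallest margin (log2 change 0.62, SE 0.16, limma adjusted p = 0.695; without mutant 1 0.51, SE 0.14, limma adjusted p = 0.158). Matn3, which assembles with Matn1 into mixed oligomers in cartilage, was 62.2, 62.3 and 76.0 FPKM in mutants, against 57.0, 54.2 and 69.7 FPKM in controls. Its groups overlapped, with control 3 above mutants 1 and 2 (log2 change 0.15, SE 0.14, limma adjusted p = 0.696; without mutant 1 0.20, SE 0.14). It was between 0.054, without mutant 3, and 0.25, without control 3, when 1 library was left out. Matn2, found in many connective tissues, was 42.0, 38.0 and 42.9 FPKM in mutants, against 36.1, 34.0 and 36.7 FPKM in controls. Its groups were close but did not overlap, and its spread was the smallest of the 10 genes, with a coefficient of variation of 6.40% in mutants and 3.97% in controls (log2 change 0.20, SE 0.10, limma adjusted p = 0.695; without mutant 1 0.18, SE 0.087).

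The matrilins also differed relative to each other inside a library, where library scaling cancels. Matn4 FPKM was 1.91, 1.70 and 1.77 times that of Matn3 in mutants 1, 2 and 3, against 0.819, 1.09 and 0.848 times in controls 1, 2 and 3. It was 25.4%, 32.6% and 31.8% of Matn1 in mutants, against 20.0%, 22.1% and 20.8% in controls. Neither ratio overlapped between genotypes. The ratio of Matn1 to Matn3 was 7.52, 5.24 and 5.58 in mutants, against 4.10, 4.93 and 4.08 in controls. It was thus higher in mutants, also without overlap, but mutant 2 was only slightly above control 2. No test was run on these ratios, and the share of all gene pairs without overlap was not computed.

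The 250 bases before the annotated start of transcription are shown for Matn4, the gene with the largest difference, for Matn1, the most abundant matrilin, and for Chad and Ucma, the genes with negative changes. They are RefSeq sequences of GRCm38.p6, a later build than the mm9 of the deposited values, written from 5′ to 3′ along the gene, and capitals mark the only match to the words searched.
Matn4, upstream start, chr2:164405161-164405410, minus strand: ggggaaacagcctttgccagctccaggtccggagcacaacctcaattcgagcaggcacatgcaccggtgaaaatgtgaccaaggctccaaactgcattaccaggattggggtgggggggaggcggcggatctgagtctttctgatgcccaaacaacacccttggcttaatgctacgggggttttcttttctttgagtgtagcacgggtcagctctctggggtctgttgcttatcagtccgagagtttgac
Matn4, downstream start, chr2:164404819-164405068, minus strand: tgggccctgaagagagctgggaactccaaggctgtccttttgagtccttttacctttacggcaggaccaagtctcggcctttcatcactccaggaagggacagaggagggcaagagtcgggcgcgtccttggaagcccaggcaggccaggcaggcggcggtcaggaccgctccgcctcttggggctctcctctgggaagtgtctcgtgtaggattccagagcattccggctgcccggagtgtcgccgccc
Matn1, chr4:130944135-130944384, plus strand: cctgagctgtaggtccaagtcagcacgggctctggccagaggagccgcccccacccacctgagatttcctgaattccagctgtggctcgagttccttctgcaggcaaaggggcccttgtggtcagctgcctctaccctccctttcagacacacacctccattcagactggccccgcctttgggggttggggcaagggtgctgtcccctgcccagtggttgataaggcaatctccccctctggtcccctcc
Chad, chr11:94564797-94565046, plus strand: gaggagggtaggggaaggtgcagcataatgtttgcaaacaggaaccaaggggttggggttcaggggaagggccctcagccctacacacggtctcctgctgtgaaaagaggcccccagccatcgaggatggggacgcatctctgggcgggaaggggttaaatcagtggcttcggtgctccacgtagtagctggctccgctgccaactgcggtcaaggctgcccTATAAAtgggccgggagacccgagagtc
Ucma, chr2:4975872-4976121, plus strand: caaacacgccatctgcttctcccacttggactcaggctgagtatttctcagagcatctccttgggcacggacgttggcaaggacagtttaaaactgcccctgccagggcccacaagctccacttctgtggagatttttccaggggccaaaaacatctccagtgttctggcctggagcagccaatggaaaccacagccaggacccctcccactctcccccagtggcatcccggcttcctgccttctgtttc
RefSeq gave 9 such promoters for 8 of the 10 genes, Lect1 among them under the symbol Cnmd, and none was at hand for Matn2 and Comp. Both strands were searched for 3 words that Sox proteins can bind, which overlap each other in part. The first was ACAAAG. The next was ACAATG. The last was AACAAT. The TATA box was searched as TATAAA. None of the 9 promoters held any of the 3 Sox words, which 29.6% of 32851 promoters of this length did. TATAAA was found in the Chad promoter, 28 bases before the start, and in no other of the 9, where 12.4% of all promoters held it. A match or its lack describes these letters only.

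Aggrecan and its link protein were both higher in mutants. Acan was 142, 101 and 107 FPKM in mutants 1, 2 and 3, against 75.5, 72.5 and 86.0 FPKM in controls 1, 2 and 3. The groups did not overlap, and mutant 1 was the highest (log2 change 0.56, SE 0.16, limma adjusted p = 0.695; with array weights 0.44, SE 0.084, limma adjusted p = 0.0491; without mutant 1 0.41, SE 0.095, limma adjusted p = 0.126). Hapln1 was 219.7, 163 and 248 FPKM in mutants, against 138, 141 and 153 FPKM in controls. Mutant 2 was only slightly above control 3, and the mutants varied more, with a coefficient of variation of 20.5% in mutants and 5.54% in controls (log2 change 0.52, SE 0.17, limma adjusted p = 0.695; without mutant 1 0.48, SE 0.17, limma adjusted p = 0.243). The ratio of Hapln1 to Acan was 1.55, 1.62 and 2.31 in mutants, against 1.83, 1.94 and 1.78 in controls. These ranges overlapped, with mutant 3 above and mutants 1 and 2 below all controls.

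Lect1, the most abundant of the 10 genes, was 899, 746 and 785 FPKM in mutants 1, 2 and 3, against 568, 555 and 623 FPKM in controls 1, 2 and 3. The lowest mutant, mutant 2, lay well above the highest control (log2 change 0.47, SE 0.096, limma adjusted p = 0.695; with array weights 0.42, SE 0.068, limma adjusted p = 0.0352; without mutant 1 0.40, SE 0.082, limma adjusted p = 0.109). Its ratio to Acan was 6.33, 7.41 and 7.33 in mutants and 7.52, 7.65 and 7.24 in controls, with overlap.

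The adaptors Comp and Chad differed little between genotypes. Comp, a thrombospondin-family protein of cartilage and tendon, was 124, 146 and 139 FPKM in mutants 1, 2 and 3, against 106, 125 and 145 FPKM in controls 1, 2 and 3. The values were mixed across genotypes (log2 change 0.13, SE 0.14, limma adjusted p = 0.704; without mutant 1 0.19, SE 0.13, limma adjusted p = 0.500). Leaving out control 1 gave 0.014 and leaving out control 3 gave 0.23, with 0.075 without mutant 2. Chad, a leucine-rich repeat protein that ties chondrocytes to collagen II, was 67.6, 58.0 and 61.1 FPKM in mutants, against 67.0, 63.1 and 74.8 FPKM in controls. Mutant 1 lay above controls 1 and 2 while mutants 2 and 3 were below all controls (log2 change -0.13, SE 0.11, limma adjusted p = 0.695; without mutant 1 -0.19, SE 0.093, limma adjusted p = 0.365). Its change was -0.082 without mutant 2 and -0.064 without control 3.

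Ucma had the most negative change. It was 47.3, 33.6 and 25.1 FPKM in mutants 1, 2 and 3, against 52.1, 42.0 and 62.9 FPKM in controls 1, 2 and 3. Only mutant 1 overlapped with the controls, and without it the groups were apart (log2 change -0.58, SE 0.27, limma adjusted p = 0.695; with array weights -0.84, SE 0.17, limma adjusted p = 0.0580; without mutant 1 -0.81, SE 0.19, limma adjusted p = 0.133). Without mutant 3, the female embryo, the change was -0.37, SE 0.25. Its spread was the widest of the 10 genes, with a coefficient of variation of 31.6% in mutants and 19.9% in controls. Relative to Matn1, Ucma was 10.1%, 10.3% and 5.92% in mutants, against 22.3%, 15.7% and 22.1% in controls, without overlap.

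**Figure D2:**
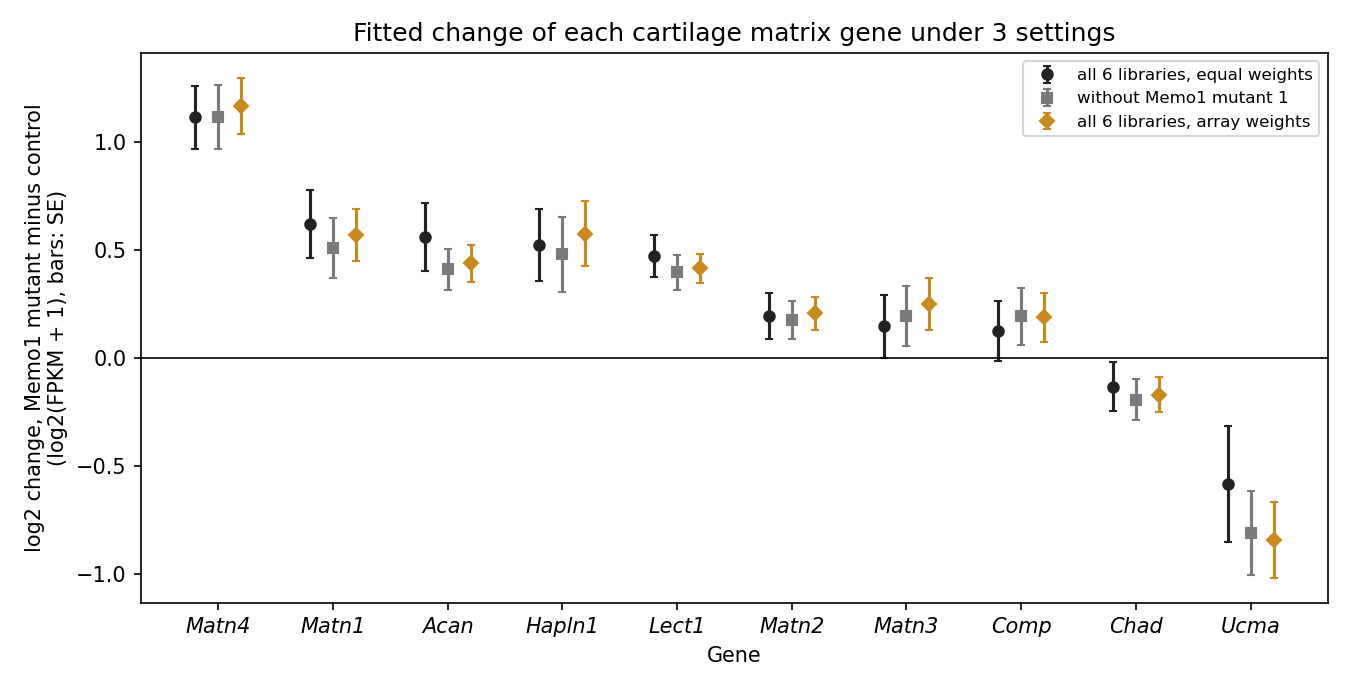
Log2 change of each gene, Memo1 mutant minus control on the log2(FPKM + 1) scale, with SE as bars, from all 6 libraries with equal weights, without mutant 1, and with array weights. Matn4 stays between 1.11 and 1.17 and Ucma is -0.58, -0.81 and -0.84.

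Of the 10 genes, 6 had a p-value under 0.05 in the authors' deposited table, where 5.47% of the 26086 entries with a p-value did. None of the 10 had a q-value under 0.05 in the authors' deposited table, where 0.0463% of the 6480 entries with a q-value did; the sources used here do not name that test. The q-values in the authors' deposited table were between 0.229, for Matn4, and 0.541, for Comp.

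Embryo titles open with an unexplained word, which is common to mutant 1 and control 1, and to mutant 3 and both other controls. Mutant 2 has a word of its own and was set against the mean of all 3 controls. By these 3 comparisons Matn4 differed by 1.33, 1.18 and 0.95 on the log2(FPKM + 1) scale, Matn1 by 0.997, 0.62 and 0.32, and Acan by 0.90, 0.43 and 0.37. Ucma differed by -0.14, -1.004 and -0.61. Of the 10 genes 8 were above 0 in all 3 comparisons, Ucma was below 0 in all 3, and Chad was mixed, at 0.014, -0.17 and -0.23. The comparisons share controls, so their signs are not independent. The share of all genes with the same sign throughout was not computed.

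Set against Col2a1, the main cartilage collagen, in the same library, the 10 genes fell into 3 kinds. Matn4 was 4.47%, 4.28% and 5.82% of Col2a1 FPKM in mutants 1, 2 and 3, against 2.97%, 3.34% and 2.68% in controls 1, 2 and 3, higher without overlap. Chad was 2.54%, 2.34% and 2.64% in mutants, against 4.27%, 3.58% and 3.39% in controls. Ucma was 1.78%, 1.35% and 1.09% in mutants, against 3.32%, 2.38% and 2.85% in controls. Chad and Ucma were thus lower without overlap, as was Comp at 4.65% to 6.01% in mutants and 6.56% to 7.09% in controls. The other 6 genes overlapped. Of all other genes tested 0.63% were higher and 32.6% lower without overlap relative to Col2a1, so 3 of 10 lower is close to that share. Lect1 was 33.8%, 30.1% and 33.9% of Col2a1 in mutants, against 36.2%, 31.4% and 28.2% in controls, and Acan was 5.34%, 4.06% and 4.63% in mutants, against 4.81%, 4.11% and 3.90% in controls.

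**Figure D3:**
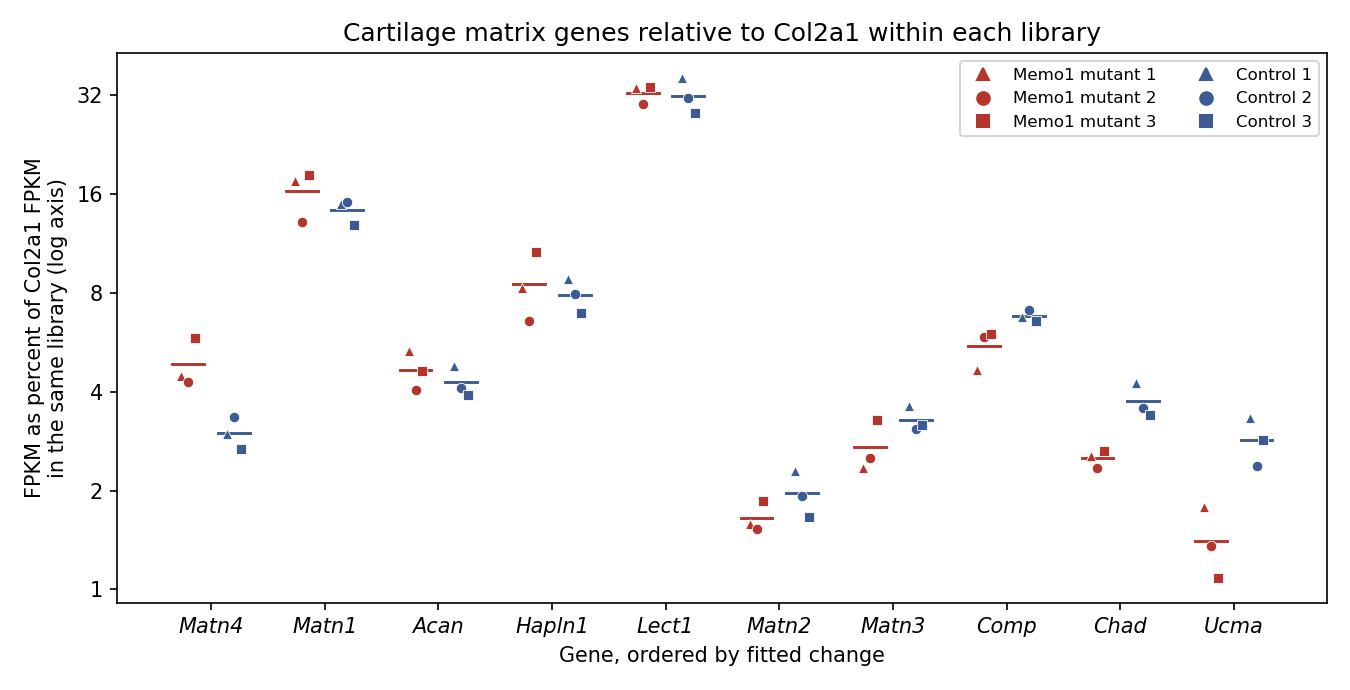
FPKM of each gene as a percentage of Col2a1 FPKM in the same library, on a log axis, with Memo1 mutants in red left of controls in blue. Points are single embryos and bars are group means. Matn4 is higher, and Comp, Chad and Ucma are lower, in mutants without overlap, while Lect1 stays near 32.6% in mutants and 31.9% in controls.

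The same was tested with every library centred on its 7 cartilage collagen genes. Since these collagens were higher in mutants, the centring moved the median of all genes to -0.53 on the log2 scale, and 44.3% of all genes were then lower without overlap and 0.185% higher. On this scale Matn4 was the only 1 of the 10 genes that was higher without overlap (log2 change 0.63, SE 0.16, limma adjusted p = 0.196). Matn2, Matn3, Comp, Chad and Ucma were lower without overlap, with -1.07, SE 0.26, for Ucma and -0.62, SE 0.16, for Chad (limma adjusted p = 0.196 for both). Matn1, Acan, Hapln1 and Lect1 were between -0.013 and 0.13, with overlap. With all 6 libraries at equal weights 0 of 10 genes passed, as did 0% of all genes, with 3 of the 10 at an unadjusted p under 0.05, where 22.9% of all genes were. Without mutant 1, Matn4 rose (0.68, SE 0.22, limma adjusted p = 0.0256), where 0.159% of genes were called higher. Chad (-0.63, SE 0.22, limma adjusted p = 0.0380) and Ucma (-1.25, SE 0.23, limma adjusted p = 6.89e-06) were called lower. These are 2 of 10 genes, close to the 16.2% of all genes called lower on this scale. In this fit without mutant 1 the limma p-values match a normal distribution, as if the spread of each gene were known exactly. The collagen centre also puts its own error into every gene alike. The calls of Matn4, Chad and Ucma without mutant 1 are thus less sure than their adjusted p-values say. With array weights 2 of the 10 genes were called higher and 4 lower, where 0.694% of all genes were called higher and 82.9% lower, so the lower calls say little of these genes.

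Other genes of the same matrix and its synthesis were read from lists. None of them passed over all genes with all 6 libraries and equal weights. Their counts without overlap stand beside 8.98% of all genes higher and 11.9% lower, or 16.2% higher and 20.1% lower without mutant 1. The cartilage collagens had 6 of 7 genes higher without overlap and a median log2 change of 0.50. The chondrocyte transcription factors had 4 of 5 genes higher without overlap and a median of 0.29. With array weights Sox9, Sox5 and Nkx3-2 were called higher, where 0.719% of all genes were. In that fit 0 of 7 collagens were called, though 7 of 7 had an unadjusted limma p under 0.05, as did 2876 of the 15710 genes. The Sox5 call rests on the low weight of mutant 1, since Sox5 was 7.01, 15.9 and 15.9 FPKM in mutants 1, 2 and 3, against 10.6, 8.99 and 9.77 FPKM in controls 1, 2 and 3, with mutant 1 below every control (log2 change 0.29, SE 0.33, limma adjusted p = 0.705 with equal weights). Nkx3-2, a repressor that keeps chondrocytes from maturing, was 16.5, 13.5 and 12.1 FPKM in mutants 1, 2 and 3, against 4.55, 5.45 and 6.59 FPKM in controls 1, 2 and 3 (with array weights 1.08, SE 0.14, limma adjusted p = 0.0223). The other secreted cartilage proteins had 5 of 12 tested genes higher without overlap and 1 lower, with a median of 0.19. Without mutant 1 the number higher without overlap was 7 of 7 for the collagens, 5 of 5 for the transcription factors and 7 of 12 for the secreted proteins, and their medians were 0.43, 0.62 and 0.30.

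Relatives of the 10 genes by family did not all follow them, with 5 of 10 tested higher without overlap, 1 lower and a median log2 change of 0.17, which was 0.054 without mutant 1. The lists share genes, so their counts are not separate. Chadl and Mgp were also counted among the other secreted cartilage proteins, and Mgp was the 1 lower gene of both lists. Tnmd was also counted among the tendon markers. Chadl, a leucine-rich repeat relative of Chad, was 103, 50.04 and 53.4 FPKM in mutants 1, 2 and 3, against 27.5, 29.0 and 38.1 FPKM in controls 1, 2 and 3 (with array weights 0.75, SE 0.13, limma adjusted p = 0.0427). Chadl was thus higher in every mutant where Chad was not, but 19.5% of its exonic bases overlap L3mbtl2 on the other strand, and the use of strand in counting is not given. Thbs4, a thrombospondin related to Comp and known from tendon, was 47.3, 34.4 and 39.3 FPKM in mutants, against 22.9, 28.2 and 31.96 FPKM in controls. Tnmd, the tendon relative of Lect1, was 36.2, 27.5 and 29.1 FPKM in mutants, against 22.8, 25.2 and 24.5 FPKM in controls, so both members of that family were higher without overlap. Mgp, a Gla protein like Ucma that inhibits calcification, was 252, 284 and 295 FPKM in mutants, against 343, 308 and 328 FPKM in controls, lower in every mutant (log2 change -0.24, SE 0.093, limma adjusted p = 0.695). Of the 10 genes themselves, Matn4 and Matn2 share 2.88% and 1.12% of their exonic bases with a gene on the other strand, and the other 8 share none.

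The machinery for aggrecan's sugar chains had 6 of 16 genes higher without overlap and 1 lower, with a median log2 change of 0.16 (8 higher and 1 lower without mutant 1, median 0.13). Csgalnact1, which starts chondroitin chains on the core protein, was 26.7, 21.1 and 24.8 FPKM in mutants 1, 2 and 3, against 15.9, 14.6 and 17.6 FPKM in controls 1, 2 and 3. Xylt1, which adds the first sugar to the core protein, was 27.1, 17.2 and 18.4 FPKM in mutants, against 11.5, 10.9 and 15.02 FPKM in controls. Neither passed, with or without array weights (limma adjusted p = 0.695 for both, and 0.0519 and 0.0859 with array weights). The hyaluronan genes had 1 of 6 tested genes higher without overlap, Has2, a hyaluronan synthase, at 8.26, 8.21 and 8.72 FPKM in mutants and 7.06, 7.46 and 7.37 FPKM in controls. Of the 12 tested proteases and inhibitors of the matrix 2 were higher and 2 lower without overlap (4 higher and 2 lower without mutant 1), near the shares of all genes. Mmp13, a collagenase that also cuts aggrecan, was listed at 0 in mutant 1 and was 1.28 and 1.19 FPKM in mutants 2 and 3, against 27.0, 19.0 and 33.3 FPKM in controls 1, 2 and 3. It fell with array weights (limma adjusted p = 0.00159) and without mutant 1 (limma adjusted p = 0.00981).

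**Figure D4:**
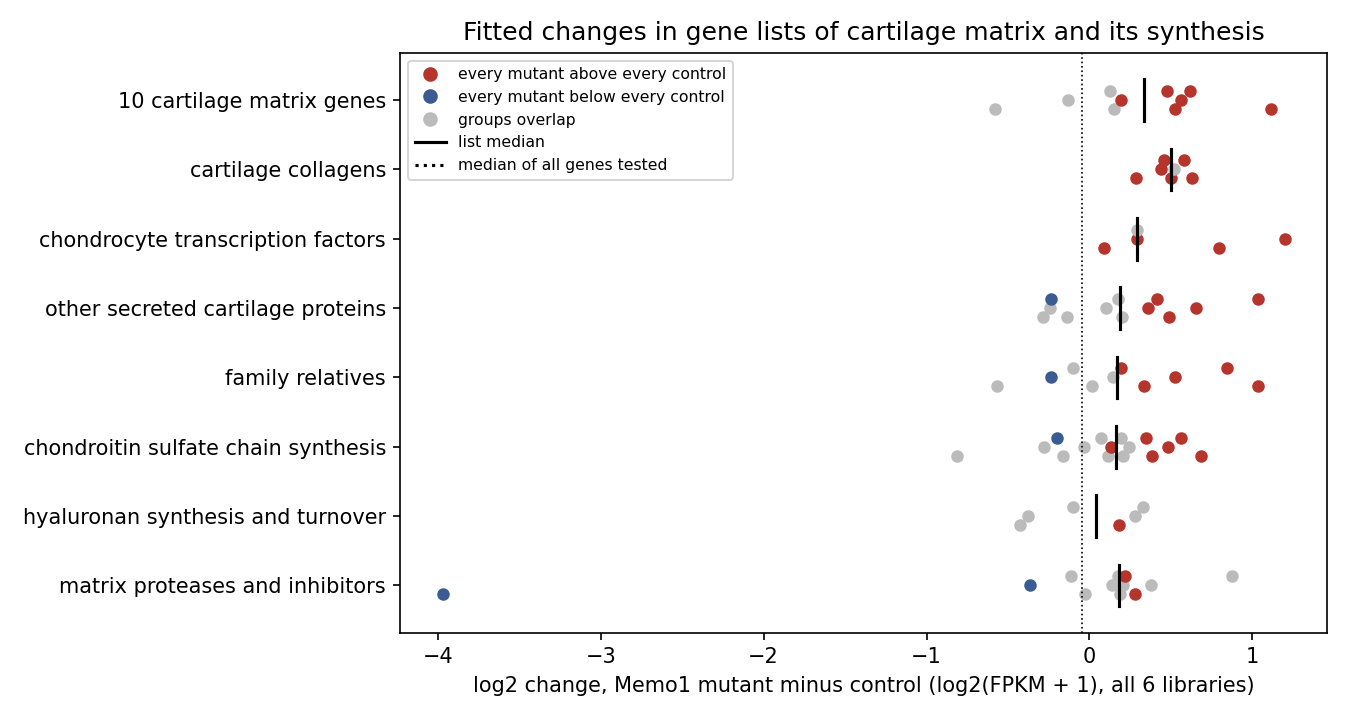
Log2 change of each tested gene, Memo1 mutant minus control on the log2(FPKM + 1) scale with all 6 libraries, in the 10 cartilage matrix genes and in 7 lists of related genes. Red points have every mutant above every control, blue points every mutant below, grey points overlap, black bars are list medians and the dotted line is the median of all genes, -0.046. Mmp13 is the blue point at -3.97.

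The mean profile of the 10 genes over the 6 libraries was 0.27, 0.019 and 0.17 in mutants 1, 2 and 3 and -0.23, -0.22 and -0.0071 in controls 1, 2 and 3, as deviations on the log2(FPKM + 1) scale. Of the 10 genes Matn2 and Lect1 lay nearest to it, with root mean square differences of 0.089 and 0.094, and Ucma and Matn4 farthest, with 0.51 and 0.42. Among other genes averaging 10 FPKM or more the nearest were Egfl6, a secreted matrix protein with EGF repeats, at 0.054, Zfp12 at 0.058, Gpsm1 at 0.058, Ckap4 at 0.061, 1810055G02Rik at 0.064 and Supt7l at 0.065. Egfl6 was 49.9, 44.8 and 45.8 FPKM in mutants 1, 2 and 3, against 35.2, 38.0 and 40.3 FPKM in controls 1, 2 and 3.

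Markers of other cells in the tissue differed too, and their part in these results was not tested. Their counts without overlap stand beside 8.98% of all genes higher and 11.9% lower, so a count of 1 in a list says little. Without overlap 3 of 3 tendon markers were higher in mutants, with a summed level of 69.4 to 91.2 FPKM in mutants and 46.5 to 56.7 FPKM in controls. In contrast 6 of 8 osteoblast markers were lower (1041 to 1525 FPKM in mutants and 1874 to 2699 FPKM in controls). Bglap was not among these 6, since its groups overlapped. It was listed at 0 in mutants 1 and 3 but was 6.12 FPKM in mutant 2, against 3.89, 2.78 and 4.78 FPKM in controls 1, 2 and 3. Lower without overlap were also 5 of 8 epithelial markers (377 to 419 FPKM in mutants and 688 to 699 FPKM in controls) and 4 of 5 skeletal muscle markers found (2162 to 2852 FPKM in mutants and 3322 to 4605 FPKM in controls). All 5 adipocyte markers were lower (12.0 to 67.5 FPKM in mutants and 103 to 134 FPKM in controls), with Adipoq, Cidec, Plin1 and Pparg listed at 0 in mutant 1. Of 6 fibroblast and perichondrium markers 3 were lower (2860 to 3206 FPKM in mutants and 3185 to 3923 FPKM in controls). The 4 markers of hypertrophic chondrocytes had 1 higher, Ihh, and 1 lower, Mmp13 (461 to 523 FPKM in mutants and 404 to 543 FPKM in controls). Macrophage markers had 1 of 5 lower (135 to 186 FPKM in mutants and 158 to 178 FPKM in controls), endothelial markers 1 of 5 higher (132 to 150.3 FPKM in mutants and 128 to 144 FPKM in controls), and neuron markers 0 of 4 found in either direction (116 to 151 FPKM in mutants and 96.4 to 187 FPKM in controls). The overlap of the macrophage sums came from mutant 1, since mutants 2 and 3 had 153 and 135 FPKM. Without mutant 1, 3 of 5 macrophage, 6 of 8 epithelial and 4 of 6 fibroblast and perichondrium markers were lower, beside 20.1% of all genes. Endothelial markers then had 2 of 5 higher, beside 16.2% of all genes. The counts of the other lists in this paragraph stayed the same.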

How the data were processed

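The authors deposited FPKM for each library, and the submitters' processing notes name Cufflinks and the build mm9. The unit was inferred from this tool and the values, and no source used here gives the aligner or annotation release. The deposited table also holds the authors' signed fold, a score, and a p-value and q-value from a test that is not given, and q is coded as 99 in 37016 entries. The code 999999999 was treated as missing, which removed 15 entries and none of the 10 genes. Columns were matched to embryos by title. The embryos are separate by their labels, and replicate numbers follow accession order and pair nothing.

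Genes averaging 1 FPKM or more in the 6 libraries entered limma 3.58.1 (R 4.3.3) as log2(FPKM + 1), with trend and robust estimates, two-sided, adjusted by Benjamini-Hochberg over all genes at 0.05. This scale understates the change of low genes. The script was tested on simulated data with equal spread in all libraries and planted changes larger than those of the 10 genes. That test does not show how many real changes would be missed or wrongly called here. Depth was read from the ratio of low values to those of control 1, where at least 100 genes lay within 2% of 1 ratio. Alternatives were the pseudocount, the filter, array weights, scaling, eBayes without trend, the title word as random effect (statmod 1.5.0) and leaving out each library. Promoters came from RefSeq, GRCm38.p6, exon overlaps from GENCODE M21. The genes, lists and tests were chosen with earlier results of these data known, so counts over them are descriptions. Besides the 10 genes, genes were named for the smallest p in a list, at most 4 a list, or the nearest profiles. Ihh, Hyal2 and any gene named for being at 0 were named after their values were seen. Mia1, Acta1 and Tubb3 matched no entry. The result of 1 marker list is not reported here.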

Additional observations from a re-analysis of the deposited data

How the results depend on the processing

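On the deposited scale the direction of all 10 genes was the same in each of the 16 settings run. Relative to the cartilage collagens Acan (-0.027 to 0.15), Hapln1 (-0.080 to 0.23) and Lect1 (-0.072 to 0.067), all near 0, did not keep 1 direction over these settings, and the other 7 genes did. Over all genes limma called 0 genes with equal weights, against 320 with array weights, 1 at a mean of at least 10 FPKM and 1 with quantile normalization, and 0 to 7 when 1 library was left out, 7 without mutant 1. Of the 10 genes 0 were called with equal weights, 3 with array weights (Matn4, Acan and Lect1) and 0 in the other settings, including each library left out. The number without overlap was 6 with all libraries, 7 with median-ratio scaling, and 6 to 8 when 1 library was left out. Chad, lower in mutants, was the gene added by median-ratio scaling. With quantile normalization the number was again 6, but Matn2 overlapped and Ucma was lower without overlap. The shares of all genes under these scalings are not given here. Relative to the cartilage collagens 0 of the 10 were called, against 6 with array weights, 1 (Ucma) without a filter on low values, and 0 to 3 when 1 library was left out, 3 without mutant 1. On this scale 82.9% of all genes were called lower with array weights and 16.2% without mutant 1. Without the filter Ucma passed only narrowly (limma adjusted p = 0.0489), with Matn4 at 0.0502 and Chad at 0.0533. The share of all genes called without the filter is not given here. The limma adjusted p of Matn4 was between 0.0164 and 0.872 over the settings, of Acan between 0.0491 and 0.872, and of Lect1 between 0.0352 and 0.872.

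The change of Memo1 on the deposited scale, 0.074 with all libraries, turned its sign, to -0.0069 with quantile normalization; it was -0.011 (without mutant 1) to 0.15 (without mutant 2) when 1 library was left out, and -0.00025 without control 1; the cause was not tested. The numbers of the embryos pair nothing, so the shared title word served as the replicate block. With it as a random block (consensus correlation 0.108) Matn4 changed by 1.13 (limma adjusted p = 0.448), and 0 genes were called. Depth is unknown for mutant 1, whose lowest 5% of values above 0 reached 1.87 FPKM, and 3 embryos a group limit what can pass.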
